A study of Mus musculus with 64 samples.

Results

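Of 47729 genes in the count table, 10 were followed here, chosen by their strong change in gonadal fat after ovariectomy on a high-fat high-sucrose (HF/HS) diet. They were Acsm3, Vnn3, Phkg1, Slc7a11, Slc5a7, Gpc1, Cd209b, Rnf128, Zfp809 and B430010I23Rik. The choice used the measured values of the 8 female fat libraries on that diet, so the values in that contrast are a description and carry no test. RNA came from gonadal fat and liver of 32 C57BL/6J mice, an inbred laboratory strain with no introduced allele, which gave 64 libraries. Males and females were gonadectomized (testes or ovaries removed) or sham-operated at 6 weeks of age, with the gonads of sham mice handled and left in place. From 8 weeks they ate chow or the HF/HS diet, and both tissues were taken at 16 weeks, from 4 mice in each of the 8 combinations of sex, diet and surgery. Loss of the gonad removes all its hormones together, and the labels name no hormone replacement.

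Ovarian estrogens act on fat cells and on the blood vessel, immune and stromal cells around them, and their loss in rodents is known to increase visceral fat. Gonadal fat is a mixture of these cells, and in females it lies against the ovary, oviduct and uterine horn. In bulk tissue fewer cells of a type and less RNA per cell cannot be told apart.

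The genes do not form a single pathway. Acsm3 encodes a mitochondrial enzyme that activates medium-chain fatty acids, Vnn3 a vanin, an enzyme family that releases pantothenate and cysteamine from pantetheine, and Phkg1 a catalytic subunit of phosphorylase kinase, which switches on glycogen breakdown. Slc7a11 encodes the cystine-glutamate exchanger xCT and Slc5a7 the high-affinity choline transporter known from cholinergic neurons. Gpc1 encodes glypican-1, a heparan sulfate proteoglycan of the cell surface, and Cd209b encodes SIGN-R1, a lectin of macrophages. Rnf128 encodes GRAIL, a ubiquitin ligase set in membranes, Zfp809 a zinc finger protein that silences retroviral elements, and B430010I23Rik an antisense RNA without a known protein.

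On chromosome 10, Vnn3 occupies positions 23851462 to 23869843 (plus strand), and on chromosome 8 Cd209b occupies 3917655 to 3926844 (minus strand). On chromosome 17, Slc5a7 lies at 54273590 to 54299034 (minus strand), and on the X chromosome Rnf128 lies at 139563316 to 139673145 (plus strand), all in GRCm38. RefSeq (GRCm38.p6) gave start regions, from 250 bases before to 50 after the transcript start, for 8 of the 10 genes. They were searched on both strands for the estrogen response element (GGTCA, then any 3 bases, then its reverse complement TGACC), for the core GGTCA alone, which every full element also contains, and for the antioxidant response element TGACNNNGC. The full estrogen element was found in none of the 8 genes, and it occurs in 0.0700% of the 32851 start regions of all genes. The core was found in Cd209b and Vnn3, which fell, and in Slc5a7 and Rnf128, which rose, against 40.5% of all start regions. The antioxidant element was found in Cd209b and Vnn3 (12.4% of all start regions) and not in Slc7a11, a textbook target of the antioxidant response, which concerns these 300 bases only. The 4 start regions with a match are shown 5′ to 3′ on the gene's own strand, with the matches in capitals, to let genes that moved in opposite directions be compared.
Vnn3, chr10:23851212-23851511, plus strand: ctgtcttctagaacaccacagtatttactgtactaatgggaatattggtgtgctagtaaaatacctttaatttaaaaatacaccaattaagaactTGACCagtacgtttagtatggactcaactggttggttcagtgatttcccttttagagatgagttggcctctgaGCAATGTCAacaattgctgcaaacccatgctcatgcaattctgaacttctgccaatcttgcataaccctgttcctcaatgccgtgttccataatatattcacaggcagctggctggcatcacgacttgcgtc
Cd209b, chr8:3926792-3927091, minus strand: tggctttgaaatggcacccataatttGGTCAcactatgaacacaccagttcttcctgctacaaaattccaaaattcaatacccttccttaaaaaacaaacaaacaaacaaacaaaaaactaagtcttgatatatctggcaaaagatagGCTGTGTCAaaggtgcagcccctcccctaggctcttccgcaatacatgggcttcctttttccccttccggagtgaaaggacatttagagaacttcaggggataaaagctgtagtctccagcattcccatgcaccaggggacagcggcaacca
Slc5a7, chr17:54298985-54299284, minus strand: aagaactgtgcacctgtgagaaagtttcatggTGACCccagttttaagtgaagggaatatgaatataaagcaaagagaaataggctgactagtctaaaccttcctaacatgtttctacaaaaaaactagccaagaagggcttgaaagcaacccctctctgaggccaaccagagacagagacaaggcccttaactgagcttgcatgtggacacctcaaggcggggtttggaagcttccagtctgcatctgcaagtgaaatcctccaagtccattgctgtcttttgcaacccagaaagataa
Rnf128, chrX:139610370-139610669, plus strand: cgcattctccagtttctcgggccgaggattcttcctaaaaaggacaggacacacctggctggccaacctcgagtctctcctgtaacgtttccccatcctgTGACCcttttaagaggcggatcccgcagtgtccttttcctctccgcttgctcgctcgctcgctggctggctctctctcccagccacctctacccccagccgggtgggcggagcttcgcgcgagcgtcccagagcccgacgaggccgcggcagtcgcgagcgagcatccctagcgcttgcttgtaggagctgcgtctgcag
Vnn3 and Cd209b carry a core and an antioxidant element each, at different places, whereas Slc5a7 and Rnf128 carry a core alone. Acsm3, Phkg1 and Zfp809, which fell as well, and Slc7a11, which rose, carry neither. The Rnf128 region belongs to a transcript that starts inside the gene, downstream of the annotated gene start. A match of letters is a description, and binding of a receptor was not measured.

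Levels are given as CPM, the count of a gene relative to its library's total, scaled to library size by the TMM method within each tissue. The 6 other genes lie at chromosome 7, 119760923 to 119787513 (Acsm3), chromosome 5, 129863421 to 129898549 (Phkg1), chromosome 3, 49892526 to 50443614 (Slc7a11), chromosome 1, 92831645 to 92860779 (Gpc1), chromosome 9, 22225714 to 22243354 (Zfp809) and chromosome 8, 41017468 to 41024216 (B430010I23Rik). Totals ran from 9215593 to 15897429 counts in fat and from 9591833 to 15248255 in liver, so that 3 counts stood for 0.189 to 0.326 CPM in fat and 0.197 to 0.313 CPM in liver. The fat marker Adipoq lay at 1914 CPM or above in all 32 fat libraries and at 1.67 CPM or below in liver, and the liver marker Alb at 62259 CPM or above in liver. In fat, Alb reached 1925 CPM (median 51.9) and the liver gene Apoa1 121 CPM (median 1.34). The part of liver RNA in the fat levels was not tested. One fat library stood apart in ovary markers, that of mouse 35, labelled as ovariectomized on HF/HS, in which the 10 listed genes summed to 280.1 CPM against 9.11 to 20.4 CPM in the other 15 female fat libraries.

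In HF/HS-fed females, 4 of the 10 genes were higher and 6 lower after ovariectomy. The 4 ovariectomized mice did not overlap the 4 sham mice for any of them, which the choice of genes by these libraries favours. The share of all genes without overlap was not counted. All 10 were among the genes called in that contrast, which is how they were picked, and 3.02% of all 15736 tested genes were called. A call is an adjusted p under 0.05 in edgeR's quasi-likelihood test with Benjamini-Hochberg adjustment over all tested genes. Slc7a11, Rnf128 and Slc5a7 ranked 1, 2 and 4 by size of change among the 476 called genes, and Zfp809 ranked 358. These ranks are a description, since the same libraries chose the genes. The rule gave no numeric limit for a strong change. The number of genes called in female fat depended on single mice, from 5 (without mouse 44) to 1419 (without mouse 34) on HF/HS and from 0 (without mouse 51, 52, 57 or 60) to 843 (without mouse 50) on chow. The calls of related genes come from the same fits, so each of them on chow is lost without any of those 4 mice (51, 52, 57 or 60). The other comparisons of these 10 genes used mice or a tissue that the listing did not use, while related genes and markers in females on HF/HS come from the same 8 libraries.

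**Figure D1:**
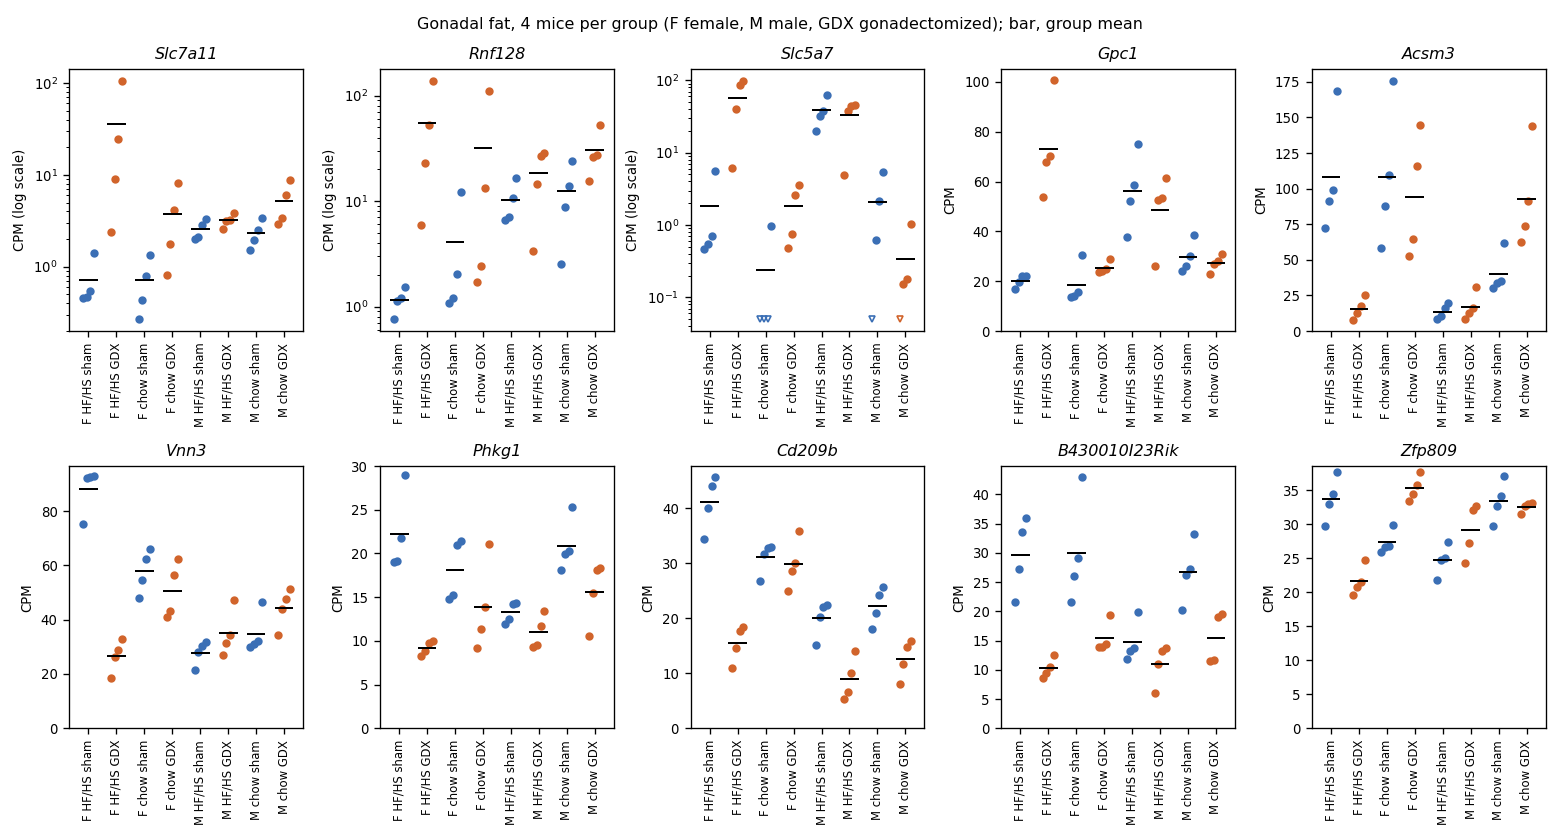
Level of each gene in gonadal fat, in CPM, for each mouse (points) with the group mean (bar) in 8 groups of 4, sham in blue and gonadectomized (GDX) in orange. The 3 panels of Slc7a11, Rnf128 and Slc5a7 have log axes, where open triangles mark libraries at 0 and the bars are arithmetic means, and the other axes start at 0. Acsm3 in ovariectomized females on HF/HS (7.73 to 25.1 CPM) sits at the level of males on HF/HS.

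Acsm3, the fatty acid enzyme, fell the most of the 6 lower genes. Sham females on HF/HS had 72.4, 168, 99.0 and 91.7 CPM, and ovariectomized females had 17.6, 12.95, 25.1 and 7.73 CPM. The log2 fold change was -2.75 (SE 0.36), so the level after ovariectomy was 0.149 of that in sham females. On chow the sham females had 109.5, 58.6, 176 and 88.0 CPM and the ovariectomized ones 52.4, 64.9, 116 and 144 CPM. These groups overlapped widely (log2 fold change -0.18, SE 0.44, adjusted p = 0.850). Males on HF/HS were low whether sham (13.6 ± 5.28 CPM, SD, n = 4) or gonadectomized (17.1 ± 9.88), and chow-fed males had 40.4 ± 14.4 CPM after sham surgery and 92.9 ± 36.1 CPM after gonadectomy without overlap, at an adjusted p of 0.105 (log2 fold change 1.19, SE 0.33). DESeq2, which the authors used, gave an adjusted p of 0.00050 for that difference. Acsm5, another enzyme of the same family, was lower in the HF/HS contrast as well (6.98 ± 1.38 against 18.1 ± 4.27 CPM, log2 fold change -1.35, adjusted p = 0.0223) and was not called on chow (-0.41, adjusted p = 0.410). No further enzyme of this 5-gene list was tested in female fat.

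Vnn3, the pantetheinase, had its highest level of all fat groups in sham females on HF/HS, at 75.2, 92.3, 92.9 and 92.7 CPM. Their ovariectomized counterparts had 32.9, 28.9, 26.3 and 18.4 CPM, beside 21.5 to 31.7 CPM in sham males on the same diet, with mouse 33 above and mouse 36 below that range. The log2 fold change was -1.71 (SE 0.16). On chow the females had 57.7 ± 8.02 CPM after sham surgery and 50.7 ± 10.4 CPM after ovariectomy, and the groups overlapped (log2 fold change -0.18, SE 0.15, adjusted p = 0.546). Sham females exceeded sham males on chow (48.1 to 66.1 against 29.8 to 46.6 CPM, log2 difference 0.71, SE 0.15, adjusted p = 0.00853), and this call held with each mouse left out. Gonadectomy of males gave 0.34 on either diet (SE 0.17 on HF/HS and 0.16 on chow) and was not called (adjusted p = 0.255 and 0.298). Its relative Vnn1 went in opposite directions in the females, from 34.7 ± 22.7 to 8.11 ± 1.26 CPM on HF/HS (adjusted p = 0.0477) and from 5.03 ± 1.13 to 11.1 ± 3.72 CPM on chow (adjusted p = 0.0456). Of the 9 other genes listed for pantetheinases and coenzyme A synthesis, all tested, Vnn1 fell on HF/HS, while on chow Vnn1 rose and 2 enzymes of coenzyme A synthesis fell, Pank3 (log2 fold change -0.61, adjusted p = 0.0421) and Coasy (-0.84, adjusted p = 0.0218). The medians of these 9 were -0.20 on HF/HS and -0.27 on chow, against 0.04 and 0.02 over all genes tested.

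Phkg1, the glycogen phosphorylase switch, was at 19.1, 28.97, 21.8 and 19.1 CPM in sham females on HF/HS and at 9.80, 9.96, 8.28 and 8.81 CPM after ovariectomy (log2 fold change -1.25, SE 0.16). On chow the sham females had 18.1 ± 3.54 and the ovariectomized 13.9 ± 5.20 CPM, with overlap (-0.37, SE 0.24, adjusted p = 0.427). Of these 4 ovariectomized mice, 3 lay below every sham mouse, and mouse 51, at 21.1 CPM, was the exception. The fat library of that mouse stood apart in skeletal muscle markers, with a summed level of 3735 CPM for 8 genes against 32.998 to 535 CPM in the other 15 female fat libraries, and the part of muscle in the Phkg1 value was not tested. Among the 14 tested genes of phosphorylase kinase and glycogen, 4 fell on chow, namely the glycogen phosphorylase Pygl (log2 fold change -1.18, adjusted p = 0.0230), the glycogen synthases Gys1 (-0.72, adjusted p = 0.0348) and Gys2 (-2.17, adjusted p = 0.0347) and the branching enzyme Gbe1 (-1.26, adjusted p = 0.0201). On HF/HS 1 of the 13 others fell, Pygl (-1.24, adjusted p = 0.0259). Without Phkg1 the list medians were -0.15 on chow and -0.19 on HF/HS, beside 0.02 and 0.04 over all genes.

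Slc7a11, the cystine exchanger, was nearly silent in sham females and varied widely among ovariectomized females on HF/HS. Sham females 41, 42, 43 and 44 had 1.43, 0.472, 0.537 and 0.460 CPM, and ovariectomized females 33, 34, 35 and 36 had 9.12, 2.42, 106 and 24.3 CPM. The log2 fold change was 5.63 (SE 1.21), and 4.05 (SE 0.81) without mouse 35. On chow the sham females had 0.429, 1.35, 0.795 and 0.268 CPM, and ovariectomized females 49, 50, 51 and 52 had 0.813, 4.11, 1.78 and 8.16 CPM. Only mouse 49 lay within the sham range, and the log2 fold change of 2.42 (SE 0.76) did not pass in edgeR (adjusted p = 0.129), while DESeq2 gave an adjusted p of 0.00959. Sham males on chow lay above sham females on chow without overlap (1.53 to 3.38 against 0.268 to 1.35 CPM, log2 difference of females from males -1.76, SE 0.42, adjusted p = 0.0154). The gene passed the filter on low counts through the males, at 18 to 40 counts against 3 to 14 in females, so the call is a description. This call was lost without male 30 or without female 57 or 60 (adjusted p 0.0523 to 0.0621), and in a joint fit of all fat libraries (adjusted p = 0.204). The other 12 tested genes for cystine uptake and glutathione, a redox buffer made from cysteine, gave no call by edgeR in female fat on either diet (4 on HF/HS and 2 on chow had an unadjusted p under 0.05), and their medians were 0.05 on HF/HS and -0.04 on chow. Among 10 genes of the response to amino acid shortage, which is known to raise Slc7a11, 1 was called on HF/HS, Asns, and it was lower (log2 fold change -0.82, adjusted p = 0.0358), and on chow there was none. By edgeR 5 of the 10 had an unadjusted p under 0.05 on HF/HS and 1 on chow, and the medians were -0.23 and 0.10.

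Rnf128, the ubiquitin ligase, had the same order among the ovariectomized females on HF/HS. Mice 33, 34, 35 and 36 had 23.2, 5.90, 138 and 52.4 CPM, and the sham females had 0.760, 1.13, 1.52 and 1.197 CPM (log2 fold change 5.58, SE 0.96, and 4.55, SE 0.78, without mouse 35). On chow, ovariectomized females 49, 50, 51 and 52 had 1.72, 111, 2.41 and 13.4 CPM, and sham females 57, 58, 59 and 60 had 1.22, 2.03, 12.2 and 1.07 CPM. Single mice made the chow difference, which did not pass (log2 fold change 2.99, SE 1.63, adjusted p = 0.366). Males had 10.2 ± 4.55 CPM (HF/HS sham), 18.4 ± 11.7 (HF/HS gonadectomized), 12.4 ± 9.16 (chow sham) and 30.6 ± 15.8 (chow gonadectomized), and neither gonadectomy passed (adjusted p = 0.423 and 0.369). The other tested ligases of its membrane-bound family, 7 on HF/HS and 6 on chow, gave no call by edgeR in female fat, with 3 and 2 at an unadjusted p under 0.05.

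Epithelial markers were high in the libraries with the most Rnf128. The 10 listed oviduct and uterus genes summed to 99.2, 31.03, 768 and 275 CPM in ovariectomized females 33, 34, 35 and 36 and to 31.9 to 48.4 CPM in the sham females on HF/HS. On chow they summed to 43.9, 521, 32.1 and 72.3 CPM in ovariectomized females 49, 50, 51 and 52, and to 30.05 to 96.9 CPM in the sham females, the highest of which was mouse 59. The same sum ran from 8.10 CPM (mouse 4) to 174 CPM (mouse 29) in male fat, and from 188 to 420 CPM in liver. It therefore does not stand for oviduct and uterus alone. The 3 female fat libraries with the highest sums, mice 35, 50 and 36, were also the 3 highest for Rnf128. Mouse 59, the highest sham female for the markers, was the highest sham female for Rnf128. Slc7a11 followed the same order in the 4 ovariectomized females on HF/HS but not on chow, where mouse 52 (8.16 CPM) exceeded mouse 50 (4.11 CPM) and sham mouse 58 (1.35 CPM) exceeded sham mouse 59 (0.795 CPM). Epcam, an adhesion protein of epithelia, was at 6.60, 0, 48.5 and 14.3 CPM in ovariectomized mice 33 to 36 and at 0.269 to 0.944 CPM in the sham females on HF/HS. In mouse 34, where Epcam had no count and the sum was just below the sham range, Rnf128 (5.90 CPM) and Slc7a11 (2.42 CPM) were the lowest of their group and still above every sham mouse. The choice of the genes by these libraries favours that lack of overlap, so it is a description. In mouse 50 the sum of 521 CPM included 286 CPM of Krt18 and 196 CPM of Krt8, both keratins, and 21.1 CPM of Epcam. That library was also the highest in female fat for the listed markers of mammary and other epithelium (484 CPM, others 6.86 to 126 CPM). For mesothelial markers it was the highest too (940 CPM, others 152 to 679 CPM). Of the oviduct and uterus genes, 7 were tested in the HF/HS contrast and edgeR called none, all 7 having an unadjusted p under 0.05 (median log2 fold change 1.89). Mouse 35 also held 105.4 CPM of Cyp11a1, the first enzyme of steroid synthesis, against 0.873 CPM or less in the other 15 female fat libraries. The part of these markers in the Rnf128 and Slc7a11 results was not tested.

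**Figure D2:**
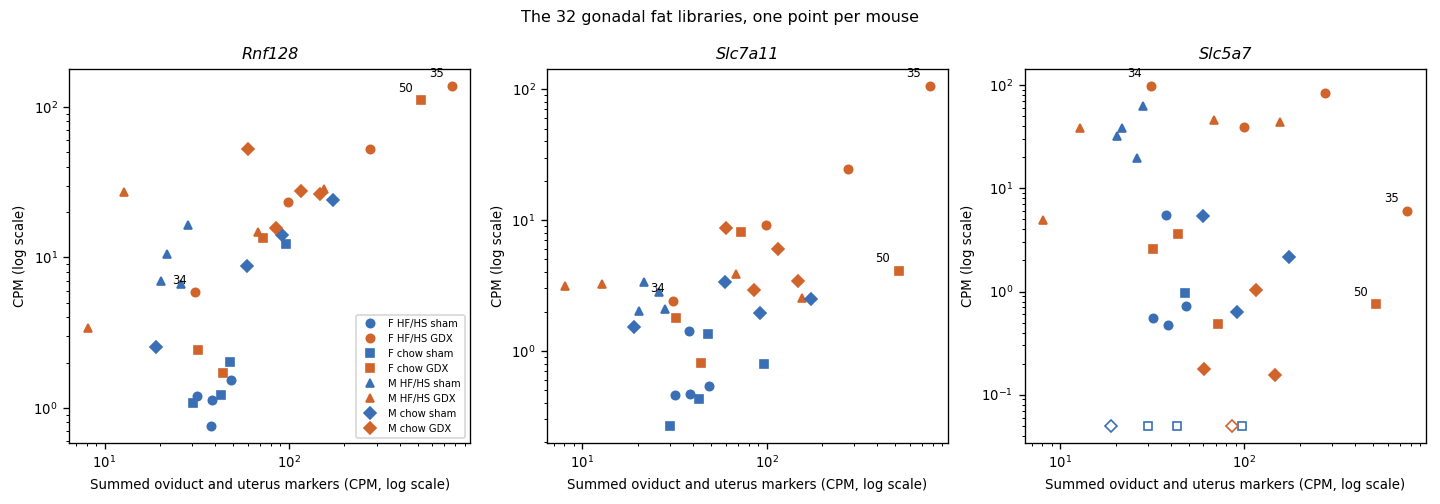
Level of Rnf128, Slc7a11 and Slc5a7 (vertical, CPM, log scale) against the summed level of 10 oviduct and uterus markers (horizontal, CPM, log scale) in the 32 gonadal fat libraries, with a shape for each sex and diet and open symbols at 0.05 for libraries at 0. Mice 34, 35 and 50 are numbered, and mouse 35 is highest for Rnf128 (138 CPM) and Slc7a11 (106 CPM) but low for Slc5a7 (6.09 CPM) among the ovariectomized females on HF/HS.

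Slc5a7, the choline transporter, had its extremes in the same mice, the other way round. Ovariectomized females 33, 34, 35 and 36 had 39.8, 98.7, 6.09 and 84.9 CPM, so that mouse 35 was the lowest and mouse 34 the highest. Sham females had 5.51 CPM in mouse 41 and 0.472, 0.716 and 0.552 CPM in the others (log2 fold change 5.01, SE 0.96, and 6.62, SE 1.11, without mouse 41). Chow-fed females were low throughout, at 0, 0.967, 0 and 0 CPM after sham surgery and 3.61, 0.755, 2.59 and 0.480 CPM after ovariectomy, and the gene was not tested there.

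In males Slc5a7 differed by diet. Sham males had 32.4, 38.1, 63.5 and 19.9 CPM on HF/HS against 2.18, 5.41, 0.627 and 0 CPM on chow, a log2 difference of 4.22 (SE 0.81, adjusted p = 0.0213). The gene passed the filter on low counts through the HF/HS group, at 224 to 694 counts against 0 to 64 on chow. This call is therefore given as a description. The groups did not overlap, and the call was lost without mouse 9, 10, 11, 29 or 31 (adjusted p 0.0515 to 0.0625). Gonadectomized males on HF/HS had 46.3, 38.2, 43.7 and 4.90 CPM and did not differ detectably from sham (log2 fold change -0.19, SE 0.62, adjusted p = 0.881). Of the choline genes listed with it, 10 were tested in females on each diet. The phospholipid-making transferase Cept1 was lower on HF/HS (log2 fold change -0.45, adjusted p = 0.0288), and Pemt, which makes phosphatidylcholine by methylation, was lower on chow (-1.08, adjusted p = 0.0347).

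Gpc1, the surface proteoglycan, was at 22.2, 17.1, 19.8 and 22.0 CPM in sham females on HF/HS and at 67.9, 101, 53.9 and 70.3 CPM after ovariectomy (log2 fold change 1.87, SE 0.18). On chow 3 of the sham females had 13.7, 15.6 and 14.0 CPM, mouse 58 had 30.5 CPM, and the ovariectomized females had 23.9, 23.7, 29.1 and 24.8 CPM. The overlap came from mouse 58, and the difference did not pass (log2 fold change 0.48, SE 0.25, adjusted p = 0.332). Males on HF/HS had 56.0 ± 15.4 CPM after sham surgery and 48.4 ± 15.4 CPM after gonadectomy, with the sham mean above that of sham males on chow (29.8 ± 6.47, log2 difference 0.91, SE 0.23, adjusted p = 0.0411). That diet call was lost without mouse 9, 10, 11, 29, 31 or 32 (adjusted p 0.0691 to 0.106) and without the filter on low counts (0.0942). Of the 7 other glypicans and syndecans tested, Sdc1 was higher on HF/HS (log2 fold change 1.02, adjusted p = 0.0288), and on chow Gpc6 was higher (0.77, adjusted p = 0.0215). Gpc6 was also higher in gonadectomized males, on HF/HS (0.75, adjusted p = 0.00427) and on chow (0.73, adjusted p = 0.0149), where Gpc1 itself gave -0.20 and -0.13 (adjusted p = 0.721 and 0.717).

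Cd209b, the macrophage lectin, was lower after gonadectomy in both groups of males as well as in the HF/HS-fed females that chose it. Sham females on HF/HS had 45.7, 44.2, 40.1 and 34.5 CPM and ovariectomized females 14.6, 18.5, 11.05 and 17.7 CPM (log2 fold change -1.39, SE 0.16). Males on HF/HS had 22.0, 22.5, 15.2 and 20.2 CPM after sham surgery and 6.64, 10.1, 5.34 and 14.0 CPM after gonadectomy (-1.14, SE 0.27, adjusted p = 0.0370). Chow-fed males had 25.7, 21.0, 24.2 and 18.1 CPM and 16.0, 14.8, 8.09 and 11.6 CPM (-0.83, SE 0.20, adjusted p = 0.0487). The groups were apart in both sets of males, yet the call on HF/HS was lost without mouse 1, 2, 9, 10, 11 or 12 (adjusted p 0.0532 to 0.103) and without the filter on low counts (0.107), and the call on chow without any mouse but number 32 (adjusted p 0.0525 to 0.144, mice 17, 18, 19, 20, 29, 30 and 31), and the chow value did not pass with total counts as the scale (adjusted p = 0.0886) or without the filter (0.0529). Chow-fed females had 26.7 to 33.1 CPM after sham surgery and 25.0 to 35.9 CPM after ovariectomy, a log2 fold change of -0.04 (SE 0.12, adjusted p = 0.875). The difference between the sexes on chow was 0.77 (SE 0.25) and did not pass (adjusted p = 0.135). Sham females on chow were above sham males (log2 difference 0.45, SE 0.12, adjusted p = 0.0274), a call lost without male 30 or without female 58, 59 or 60 (adjusted p 0.0513 to 0.0781), and with total counts (adjusted p = 0.118) or a joint fit (0.135).

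Other lectins of the Cd209 family moved with it. In males on HF/HS 5 of the 6 tested fell, Cd209b with Cd209a (log2 fold change -0.69, adjusted p = 0.0280), Cd209d (-1.70, adjusted p = 0.00109), Cd209f (-1.47, adjusted p = 0.0171) and Cd209g (-1.10, adjusted p = 0.0273). On chow 2 of 7 fell, Cd209b and Cd209d (-1.001, adjusted p = 0.0226). In females on HF/HS, where Cd209b was chosen, 2 of the 5 others fell, Cd209d (-0.77, adjusted p = 0.0418) and Cd209f (-0.83, adjusted p = 0.0424). On chow edgeR called none of the 5, with 1 at an unadjusted p under 0.05. The medians of the family without Cd209b were -1.10 and -0.81 in males on HF/HS and chow and -0.61 and 0.14 in females, where the median of all tested genes was at most 0.04. These genes are paralogs, and reads shared between near-identical copies are uncertain. The 10 macrophage markers summed to 1380 to 2084 CPM in gonadectomized and 1662 to 2105 CPM in sham males on HF/HS, where 2 of them fell, Csf1r and Mrc1, and to 819 to 1881 and 1331 to 1894 CPM in the females on HF/HS, where 1 rose, Itgax. The part of macrophage number in the lectin levels was not tested.

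Zfp809, the retroviral silencer, moved in opposite directions on HF/HS and chow, a difference that was not tested. Sham females on HF/HS had 34.5, 37.7, 29.7 and 32.96 CPM and ovariectomized females 24.7, 20.8, 21.5 and 19.5 CPM (log2 fold change -0.62, SE 0.11). On chow the sham females had 25.9, 26.7, 29.9 and 26.8 CPM and the ovariectomized 34.5, 33.4, 35.8 and 37.6 CPM. The groups were apart on both diets, and on chow the gene rose (log2 fold change 0.38, SE 0.08, adjusted p = 0.0395). That call held without mouse 50 or 59 and was lost without mouse 49, 51, 52, 57, 58 or 60 (adjusted p 0.0632 to 0.138) and without the filter on low counts (0.0654). Males showed no call for gonadectomy (24.7 ± 2.29 to 29.1 ± 4.02 CPM on HF/HS, adjusted p = 0.198, and 33.4 ± 3.07 to 32.6 ± 0.707 CPM on chow, adjusted p = 0.841). The difference between the sexes on chow was 0.41 (SE 0.10, adjusted p = 0.0704), and it passed with DESeq2 (adjusted p = 0.0138), with total counts (0.0407) and without mouse 50 (0.0463) or 59 (0.0485). In sham males it was lower on HF/HS than on chow (21.8 to 27.4 against 29.8 to 37.1 CPM, log2 difference -0.44, SE 0.09, adjusted p = 0.00779), with each mouse left out as well. Sham females on chow were below sham males (log2 difference -0.31, SE 0.09, adjusted p = 0.0336), a call lost without mouse 30, 31, 32, 57, 58 or 60 (adjusted p 0.0754 to 0.107) and without the filter on low counts (0.0529). Of the 10 other genes listed for zinc finger silencing and its partners, 1 was called in female fat on HF/HS, the DNA methyltransferase Dnmt3a (log2 fold change 0.41, adjusted p = 0.0315), and no other on chow.

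B430010I23Rik, the antisense RNA, was lower after gonadectomy in mean in all 4 groups of fat. Females on HF/HS went from 21.6, 35.95, 27.2 and 33.5 CPM to 10.5, 12.6, 9.52 and 8.56 CPM (log2 fold change -1.50, SE 0.18). On chow the sham females had 29.1, 21.7, 26.1 and 43.01 CPM and the ovariectomized 13.9, 14.4, 13.8 and 19.5 CPM, again apart, and the gene fell (-0.94, SE 0.21, adjusted p = 0.0454). Of the fits that left out 1 mouse, this call held without mouse 58, and it was lost without mouse 49, 50, 51, 52, 57, 59 or 60 (adjusted p 0.0565 to 0.133) and without the filter on low counts (0.0704). Males on chow had 26.8 ± 5.31 CPM after sham surgery and 15.4 ± 4.43 CPM after gonadectomy, also apart, at an adjusted p of 0.0712 (-0.79, SE 0.21) and 0.00612 with DESeq2, and males on HF/HS gave -0.42 (SE 0.25, adjusted p = 0.331). The gene lies opposite Mtus1, and 612 of its 3270 exonic bases (18.7%) overlap Mtus1 exons. Mtus1 had 164 ± 20.9 and 121 ± 8.97 CPM in sham and ovariectomized females on HF/HS and 200 ± 31.9 and 140.1 ± 11.02 CPM on chow. The strand setting of the counts was not given in the sources used here, so reads of both genes may be mixed. Likewise 39.7% of the exonic bases of Acsm3 overlap Eri2, 18.9% of Gpc1 overlap Ankmy1 and 9.68% of Phkg1 overlap Sumf2, all on the other strand. Eri2 had 17.7 ± 1.57 and 14.3 ± 2.12 CPM, Ankmy1 0.255 ± 0.0887 and 0.324 ± 0.122 CPM and Sumf2 25.2 ± 1.91 and 19.6 ± 1.51 CPM in sham and ovariectomized females on HF/HS.

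**Figure D3:**
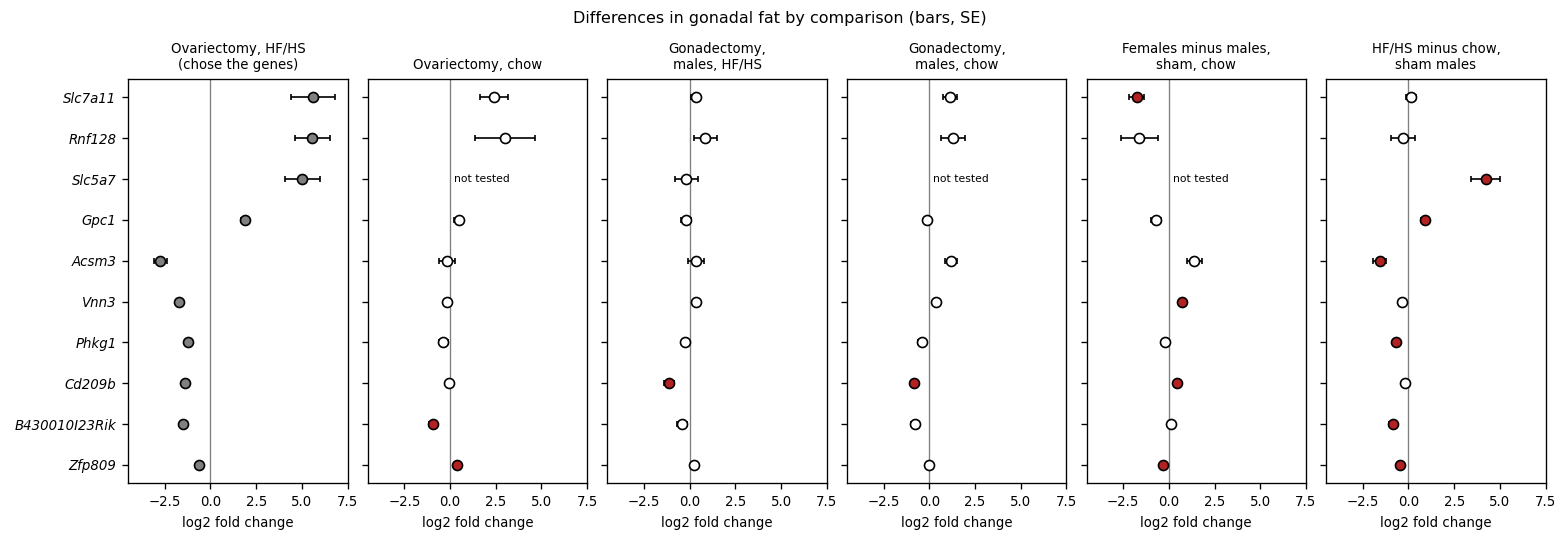
Log2 fold change (points) with its SE (bars) of the 10 genes in 6 comparisons of gonadal fat, 4 mice a group. Grey points are the contrast that chose the genes and have no test, red points passed an adjusted p of 0.05 and white points did not. The last panel, males by diet, has 6 red points, and each lies on the side of 0 where the same gene lies in the first panel. The share of all genes that do so was not counted.

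In chow-fed females 9 of the 10 genes were tested and 2 were called, Zfp809 higher and B430010I23Rik lower, where 2.84% of all 15790 tested genes were called. Of these 9, 8 had the sign of the HF/HS contrast there, Zfp809 being the exception, but the signs of Acsm3 and Cd209b changed with single mice left out. The share of all genes that keep their sign was not counted. In males 1 gene, Cd209b, was called on each diet, of 10 tested on HF/HS (8.2% of all genes called) and 9 on chow (4.98%). The difference between the sexes in the response on chow gave 0 calls in edgeR's quasi-likelihood test among the 10 genes (1.25% of all genes), 5 at an unadjusted p under 0.05 and 1 with DESeq2. Sham females and males on chow differed in 4 of 9 tested genes (14.8% of all genes), Vnn3 and Cd209b being higher in females and Slc7a11 and Zfp809 higher in males. Slc7a11 was tested there only through the counts of the males.

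The diet in sham males gave 6 calls among the 10 genes, where 15.1% of all 15900 tested genes were called. Slc5a7, which was tested only through its HF/HS counts, and Gpc1 were higher on HF/HS, and Acsm3, Phkg1, Zfp809 and B430010I23Rik were lower. Each of the 6 had the sign that it had after ovariectomy in HF/HS-fed females, and these 2 comparisons share no mouse. How many of all genes have the same sign in both was not counted, so this is not shown to be particular to the 6. Acsm3 went from 40.4 ± 14.4 CPM on chow to 13.6 ± 5.28 CPM on HF/HS (log2 difference -1.57, SE 0.35, adjusted p = 0.0289), a call lost without mouse 9, 10 or 11 (adjusted p 0.0626 to 0.0777) and without the filter on low counts (0.0596). Phkg1 went from 20.9 ± 3.09 to 13.3 ± 1.23 CPM (-0.66, SE 0.12, adjusted p = 0.00403), with each mouse left out too but not in a joint fit (adjusted p = 0.0516), and B430010I23Rik from 26.8 ± 5.31 to 14.7 ± 3.60 CPM (-0.87, SE 0.18, adjusted p = 0.0149), lost only without mouse 10 (adjusted p = 0.0552). Vnn3, Cd209b, Slc7a11 and Rnf128 did not pass (log2 differences -0.33, -0.17, 0.13 and -0.30, adjusted p = 0.202, 0.449, 0.795 and 0.802). Of the 10 macrophage markers, 5 rose and 1 fell with the diet in these males, and the part of macrophages in the 6 calls was not tested.

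The ovariectomized females on HF/HS can be set beside the sham males on that diet. Mean levels were 15.8 and 13.6 CPM for Acsm3, 26.6 and 27.9 CPM for Vnn3, 73.3 and 56.0 CPM for Gpc1, 57.4 and 38.5 CPM for Slc5a7, 21.6 and 24.7 CPM for Zfp809 and 15.4 and 19.99 CPM for Cd209b, in ovariectomized females and sham males. For Phkg1 the means were 9.21 and 13.3 CPM and for B430010I23Rik 10.3 and 14.7 CPM, while Slc7a11 (35.5 and 2.57 CPM) and Rnf128 (54.9 and 10.2 CPM) were above the highest sham male in 3 of 4 mice. Since the females chose the genes, these values are given as a description. The adipocyte markers summed to 24437 to 45906 CPM in ovariectomized and 44485 to 53322 CPM in sham females on HF/HS, and 5 of 8 mesothelial markers were lower there (summed level 152 to 380 against 397 to 512 CPM). Of the 10 adipocyte markers 1 was called, lower, and 7 had an unadjusted p under 0.05 by edgeR (median log2 fold change -0.57). Marker calls in this contrast depend on single mice, since over all genes 7 calls remained without mouse 42 and 5 without mouse 44. Of 7 tested brown or beige markers 2 were lower, Ucp1 and Elovl3 (summed level 54.5 to 206 against 121 to 335 CPM), and 5 had an unadjusted p under 0.05. Of 3 tested genes listed for hepatocytes 1 was lower, Cyp2e1 (summed level of the list 1498 to 3334 against 4902 to 7951 CPM). In that list the liver genes Alb and Apoa1 had medians of 51.9 and 1.34 CPM over the 32 fat libraries, so the sum does not stand for liver cells alone. Their highest values in fat were 1925 and 121 CPM. Lymphocyte markers summed to 217 to 604 against 123 to 239 CPM, with 0 of 6 tested called by edgeR and 2 at an unadjusted p under 0.05. Their part in the levels of the 10 genes was not tested.

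By similarity of pattern over the 24 fat libraries that did not choose the genes, the nearest of 17374 genes to Cd209b was Cd209f, with a root mean square difference of 0.31 on the centred log2 CPM scale, and to Vnn3 it was Eci3, an isomerase of fatty acid oxidation (0.17). For Rnf128 it was St14, the epithelial protease matriptase (0.85), and for Slc5a7 it was Sfrp5, a secreted Wnt inhibitor of fat (1.29). The others were Sntg1 for Acsm3 (0.58), Gltp for Gpc1 (0.29), Sox6 for Phkg1 (0.22), Adgrg5 for Slc7a11 (0.64), Pcf11 for Zfp809 (0.13) and B3galt2 for B430010I23Rik (0.29). Genes that vary more have larger differences, since the SD of the log2 values was 3.05 for Slc5a7 and 0.22 for Zfp809.

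**Figure D4:**
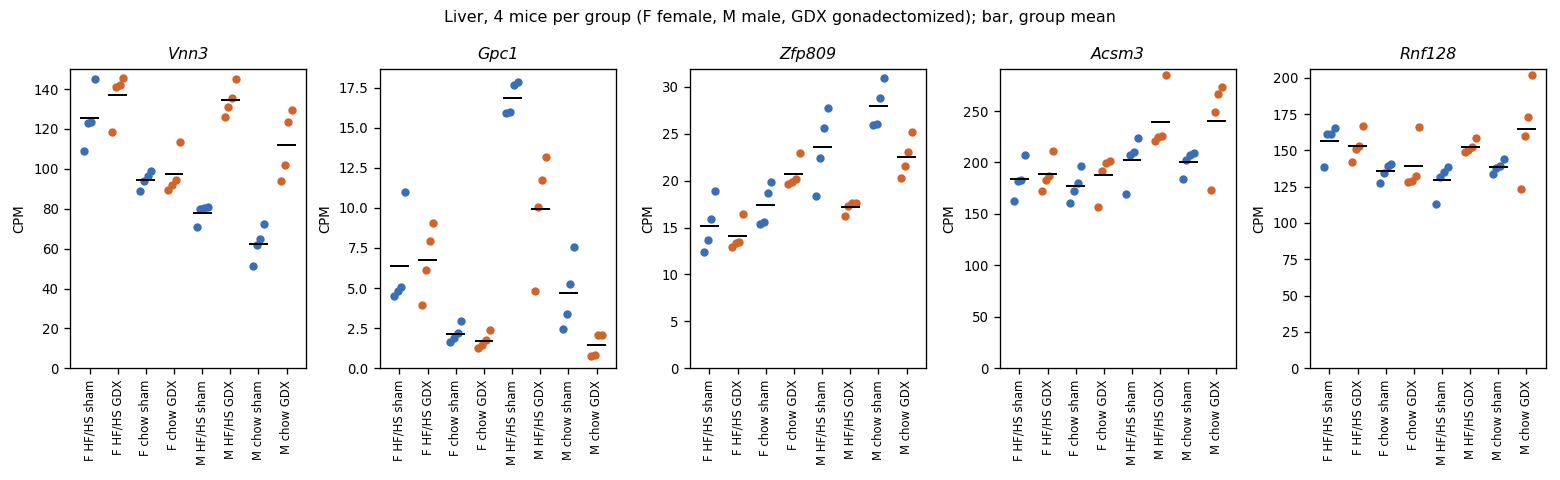
Level in liver, in CPM from 0, of the 5 genes that could be tested there, for each mouse (points) with the group mean (bar), sham in blue and gonadectomized (GDX) in orange. Vnn3 in gonadectomized males (93.8 to 145 CPM) is above every sham male (51.2 to 81.0 CPM) on both diets.

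In the liver of females, no call was made for these genes. Acsm3, Gpc1, Vnn3, Rnf128 and Zfp809 had enough counts to be tested, and none was called after ovariectomy on HF/HS, where 0.434% of all genes were called, or on chow (0.0149%). By edgeR's quasi-likelihood test, 0 of the 5 had an unadjusted p under 0.05 on HF/HS and 1 on chow, and DESeq2 also called none. Vnn3, for example, had 145, 124, 123 and 109 CPM in sham and 142, 145, 141 and 118 CPM in ovariectomized females on HF/HS, which overlapped (log2 fold change 0.13, SE 0.10, adjusted p = 0.657). Acsm3 had 184 ± 18.2 and 189 ± 16.4 CPM (0.04, SE 0.10, adjusted p = 0.912) and Rnf128 157 ± 12.2 and 153 ± 10.1 CPM (-0.03, SE 0.09, adjusted p = 0.931). The livers of these 8 females spanned 139 to 167 CPM of Rnf128, beside 0.760 to 138 CPM in their fat.

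In the liver of males, Vnn3 rose after gonadectomy on both diets, and a difference between the sexes was not tested there. Sham males had 81.0, 79.7, 80.4 and 70.7 CPM on HF/HS and gonadectomized males 145, 136, 126 and 131 CPM (log2 fold change 0.78, SE 0.08, adjusted p = 3.2e-05, with 16.5% of all genes called). On chow the values were 72.2, 61.7, 64.7 and 51.2 CPM and 123, 129.6, 93.8 and 102 CPM (0.84, SE 0.13, adjusted p = 0.00082, with 4.44% called). The groups were apart on both diets, and both calls held with each mouse left out. Vnn1 rose with it on HF/HS (54.3 ± 13.2 to 177 ± 38.3 CPM, log2 fold change 1.70, adjusted p = 0.00158) and did not pass on chow (0.50, adjusted p = 0.706). After gonadectomy the males on HF/HS reached the range of the females on that diet (109 to 145 CPM), a comparison that was not tested.

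Gpc1 fell in the livers of gonadectomized males on chow and Zfp809 in those on HF/HS. For Gpc1 the sham males had 7.57, 5.25, 3.40 and 2.44 CPM on chow and the gonadectomized 0.762, 2.05, 0.830 and 2.10 CPM, which is 7 to 22 counts (log2 fold change -1.67, SE 0.41, adjusted p = 0.0415), a call that held only without mouse 32 (adjusted p 0.0576 to 0.107 without mouse 17, 18, 19, 20, 29, 30 or 31). On HF/HS they had 16.0, 17.8, 15.9 and 17.6 CPM and 10.1, 11.8, 13.2 and 4.80 CPM, apart as well, at an adjusted p of 0.0650 (-0.76, SE 0.25), 0.0112 with DESeq2, 0.0410 without mouse 3 and 0.0128 without mouse 4. This direction differs from Gpc1 in female fat. Zfp809 had 18.3, 27.8, 22.4 and 25.6 CPM in sham and 17.6, 16.3, 17.6 and 17.2 CPM in gonadectomized males on HF/HS (-0.46, SE 0.12, adjusted p = 0.0204), lost without mouse 2, 10 or 12 (adjusted p 0.0571 to 0.0748) and with total counts (0.0582). On chow it did not pass (-0.31, SE 0.11, adjusted p = 0.133) although the groups were apart.

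The remaining 5 genes were too low in liver to be tested. Slc5a7 had no count in 31 of the 32 liver libraries and 1 count in the other. Phkg1 had 0 to 5 counts in each liver library, B430010I23Rik 0 to 7, Slc7a11 0 to 10 and Cd209b 0 to 12. In HF/HS-fed females Cd209b had 8, 6, 4 and 7 counts in sham livers and 0, 1, 2 and 0 after ovariectomy, and Slc7a11 had 2, 3, 2 and 0 against 7, 7, 7 and 4 counts. Neither pair of groups overlapped, and both genes moved in the direction seen in the fat of these mice. The share of all low genes without overlap was not counted. Without the filter on low counts Cd209b was called there (log2 fold change -2.84, SE 0.78, adjusted p = 0.0339) and Slc7a11 was not (1.79, SE 0.65, adjusted p = 0.242). In that setting 264 of all 24851 tested genes were called, and the Cd209b call rests on these few counts. In the same livers the mean of B430010I23Rik was also lower (0.349 to 0.234 CPM), but Phkg1 was higher (0.112 to 0.191 CPM), unlike in fat, both with overlap. On chow the female groups overlapped, with Cd209b at 0.373 and 0.466 CPM and Slc7a11 at 0.114 and 0.0854 CPM in sham and ovariectomized livers. In chow-fed males Phkg1 had 0 counts in sham and 1 to 3 in gonadectomized livers.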

How the data were processed

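Gonadal fat and liver of 32 mice were measured by RNA-seq. Per the labels and the study's methods, RNA of RIN above 8 went into stranded polyA libraries, and the authors aligned reads with STAR 2.5.2b to GRCm38 and deposited a raw count for each gene and library. The strand setting of the counting was not given in the sources used here. From these counts, each comparison was fitted on its own libraries with edgeR 4.0.16 in R 4.3.3 (filterByExpr, TMM, robust quasi-likelihood test, Benjamini-Hochberg adjustment over all tested genes, threshold 0.05). CPM were scaled by TMM within a tissue. Gene names were matched by identifier for 47224 of 47729 genes. There were 4 mice a group, grouped by the labels, and p-values measure the spread between these mice. Over 96 pairs of libraries within groups, none agreed within sampling noise (smallest chi-square per degree of freedom 4.90). The steps were tested on simulated data.

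The genes and lists were chosen with earlier results of these data known. From each related list were named the genes called in female fat on either diet. A list of sex hormone receptors and estrogen-responsive genes had 6 tested on each diet there and no call by edgeR. At an unadjusted p under 0.05 it had 3 on HF/HS and 1 on chow, with median log2 fold changes of 0.52 and -0.20. The rule also allowed up to 2 genes with the largest change on chow, and those not called were left out. Cd209a, Cd209g and the liver values of Vnn1 were added after their values were seen. The alternatives were DESeq2 1.42.0 (the authors' tool), library totals as scale, no filter on low counts, a joint fit of each tissue, and each mouse left out.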

Additional observations from a re-analysis of the deposited data

Results flagged for a closer look

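In 138 groups of 4 mice, single mice were set against the other 3 by Dixon's test, which by chance marks about 1 in 20 groups. That rate does not hold for female fat on HF/HS, whose values chose the genes, so marks there are a description. In fat of females on HF/HS, sham mouse 41 stood apart in Vnn3 (75.2 CPM, others 92.3 to 92.9), Slc7a11 (1.43 CPM, others 0.460 to 0.537) and Slc5a7 (5.51 CPM, others 0.472 to 0.716). Its liver stood apart in Gpc1 (11.02 CPM, others 4.53 to 5.04). In fat of chow-fed sham females, mouse 58 stood apart in Gpc1 (30.5 CPM, others 13.7 to 15.6) and Slc5a7 (0.967 CPM, others 0), and mouse 59 in Rnf128 (12.2 CPM, others 1.07 to 2.03).

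In fat of chow-fed ovariectomized females, mouse 50 was high in Rnf128 (111 CPM, others 1.72 to 13.4) and mouse 52 in B430010I23Rik (19.5 CPM, others 13.8 to 14.4). In fat of chow-fed males, sham mouse 31 was high in Acsm3 (61.7 CPM, others 30.6 to 35.3), sham mouse 32 in Vnn3 (46.6 CPM, others 29.8 to 32.1) and gonadectomized mouse 17 in Slc5a7 (1.045 CPM, others 0 to 0.178).

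In liver, gonadectomized male 1 on HF/HS was high in Acsm3 (285 CPM, others 221 to 225) and sham male 12 on HF/HS was low in Vnn3 (70.7 CPM, others 79.7 to 80.95). Ovariectomized mouse 36 on HF/HS was low in Vnn3 (118 CPM, others 141 to 145). Among chow-fed ovariectomized females, mouse 49 was high in Rnf128 (166 CPM, others 128 to 132) and mouse 51 in Zfp809 (22.9 CPM, others 19.7 to 20.2).

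Fat gave opposite directions without overlap of the groups for 2 genes. Acsm3 had a log2 fold change of -2.75 after ovariectomy on HF/HS and 1.19 after gonadectomy of chow-fed males, and Zfp809 had -0.62 after ovariectomy on HF/HS and 0.38 on chow. These differences were not tested.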

How the results depend on the processing

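No paired analysis was possible because the groups compared held different mice, whose numbers are shared only between fat and liver of the same mouse. Of 87 gene results, the direction of 19 reversed under some alternative, and none of these had passed the test. Counts are of the 10 genes called. Without the filter on low counts, 0 were called in females on chow, in males on HF/HS and in males on chow (fat), and 1 in the liver of females on HF/HS. DESeq2 called 4 in fat of chow-fed males, 4 in liver of males on HF/HS and 1 for the difference between the sexes. Library totals as scale gave 0 in fat of chow-fed males and 1 for the difference between the sexes. With them, the median change over the tested genes (log2) was 0.19 (females, HF/HS), 0.13 (females, chow) and -0.12 (sexes).

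With each mouse left out in turn, the ovariectomy contrast on HF/HS in fat had 2 to 10 genes called (2 without mouse 44, 3 without mouse 42, 6 without mouse 33, 36 or 43), a description since these libraries chose the genes. The other fat comparisons had 0 to 2 (females, chow), 0 to 1 (males, either diet), 1 to 4 (sexes), 2 to 6 (diet, with 2 without mouse 10 and 3 without mouse 9 or 11) and 0 to 1 (difference between the sexes). In liver there were 0 to 0 in females, 1 to 3 in males on HF/HS and 1 to 3 in males on chow.

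The log2 changes that reversed ranged, with each mouse left out, as follows. In fat of chow-fed females they were -0.46 to 0.16 for Acsm3 and -0.14 to 0.033 for Cd209b (0.067 with library totals). In males on HF/HS they were -0.13 to 0.56 for Acsm3, -0.35 to 0.0080 for Gpc1 and -0.41 to 0.16 for Slc5a7, and in males on chow -0.21 to 0.026 for Gpc1 and -0.093 to 0.016 for Zfp809 (0.0085 with library totals). By diet they were -0.036 to 0.34 for Slc7a11 and -0.64 to 0.25 for Rnf128, and by sex -0.072 to 0.27 for B430010I23Rik. For the difference between the sexes they were -0.24 to 0.19 for Phkg1, -0.77 to 3.19 for Rnf128 and -0.30 to 0.071 for B430010I23Rik. In female liver on HF/HS they were -0.019 to 0.10 for Acsm3, -0.062 to 0.49 for Gpc1, -0.088 to 0.0038 for Rnf128 and -0.20 to 0.0031 for Zfp809, and on chow -0.043 to 0.075 for Vnn3 and -0.062 to 0.065 for Rnf128.

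Over all genes, calls after ovariectomy in fat on HF/HS numbered 476, with DESeq2 1456 and with a joint fit 2194, and 5 to 1419 with each mouse left out. On chow they were 449, 1188, 1343 and 0 to 843. DESeq2 gave 1319 instead of 810 in fat of chow-fed males and 695 instead of 212 for the difference between the sexes. The joint fit gave 931 instead of 2393 for diet. In female liver the counts were 60 on HF/HS (DESeq2 213, no filter 264) and 2 on chow (DESeq2 15, no filter 71, joint fit 0), and in liver of chow-fed males 576 (no filter 998). At this depth Slc5a7 in chow-fed fat and 5 of the genes in liver could not be tested.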
